A study of Mus musculus with 6 samples.

Results

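The platelet adhesion receptors of the glycoprotein Ib-IX-V complex, GPVI and CLEC-2, together with molecules that sit beside them or signal after them, were examined as 10 genes out of the 18121 in the expression table. The genes were chosen by name: *Gp1ba*, *Gp1bb*, *Gp5* and *Gp9* of the complex, *Gp6* (GPVI), *Clec1b* (CLEC-2), *Treml1*, *Cd9*, *Plcg2* and *Lat*. Messenger RNA was measured in bulk from mouse Lin−CD117+ bone marrow cells, named hematopoietic stem cells (HSCs) in the study. By the study's methods such cells come from femurs and tibias of female C57BL/6 mice aged 8 weeks, after removal of lineage-positive cells and selection for CD117, the protein of *Kit*. The 3 Ctrl libraries were from normal culture, and the 3 GA libraries were from cells given glycyrrhizic acid (GA), a saponin of licorice root, for 24 h. No group carried an engineered allele. Whether replicates came from separate animals or cultures is not in the labels, and the spread behind each p-value may be technical. Levels are in FPKM, which divides the fragments of a gene by transcript length and library size, so that levels of different genes can be set side by side.

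Platelets meet a damaged vessel wall through receptors that were made in their parent cell, the megakaryocyte. The GPIb-IX-V complex catches von Willebrand factor under flow, GPVI binds collagen and CLEC-2 binds podoplanin. GPVI signals through the Fc receptor gamma chain and CLEC-2 through its own tail. Both recruit the kinase SYK by tyrosine motifs related to those of antigen receptors, and SYK acts through the adaptors LAT and SLP-76 on phospholipase C gamma 2, which leads to calcium release and integrin activation. Megakaryocyte genes are bound by GATA-1, by ETS factors such as FLI-1 and by RUNX1.

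The 4 promoters of the complex are shown because the 4 genes are made in 1 cell type and for 1 receptor. Sequences are from RefSeq (GRCm38.p6), read 5′ to 3′ on the strand of the gene, and cover the 250 bases before the annotated start. Capitals mark GATAA, a form of the GATA site, and GGAAG, a form of the ETS site, on either strand, where the reverse reads TTATC or CTTCC.
*Gp1ba*, chr11:70638872-70639121 (+): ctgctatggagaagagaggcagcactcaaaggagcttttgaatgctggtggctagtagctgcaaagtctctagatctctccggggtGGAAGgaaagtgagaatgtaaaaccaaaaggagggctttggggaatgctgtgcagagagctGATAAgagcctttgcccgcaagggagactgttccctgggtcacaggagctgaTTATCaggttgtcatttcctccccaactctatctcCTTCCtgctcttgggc
*Gp1bb*, chr16:18622404-18622653 (−): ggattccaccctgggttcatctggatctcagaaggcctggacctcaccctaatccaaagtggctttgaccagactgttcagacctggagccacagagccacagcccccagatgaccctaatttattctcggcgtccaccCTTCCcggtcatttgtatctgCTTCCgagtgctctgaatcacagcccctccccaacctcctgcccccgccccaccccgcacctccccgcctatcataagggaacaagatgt
*Gp5*, chr16:30310782-30311031 (−): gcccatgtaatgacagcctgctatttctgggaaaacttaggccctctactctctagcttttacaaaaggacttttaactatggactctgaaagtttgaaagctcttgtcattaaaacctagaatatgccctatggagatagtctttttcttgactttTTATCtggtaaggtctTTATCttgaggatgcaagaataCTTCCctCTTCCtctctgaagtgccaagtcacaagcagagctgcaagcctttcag
*Gp9*, chr6:87777820-87778069 (+): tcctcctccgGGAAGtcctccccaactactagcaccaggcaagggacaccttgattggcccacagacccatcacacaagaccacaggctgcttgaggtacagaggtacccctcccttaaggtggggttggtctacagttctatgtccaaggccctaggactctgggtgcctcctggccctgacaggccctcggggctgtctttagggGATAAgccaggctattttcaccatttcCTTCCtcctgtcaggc

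In *Gp1ba* the word GATAA began 103 and 51 bases before the start, in *Gp5* 93 and 77 bases before it, and in *Gp9* 43 bases before it. The *Gp1bb* window held no GATAA, but it holds tatc, which reads GATA on the other strand. Forms of a GATA site other than GATAA were not counted in any promoter. All 4 windows held GGAAG on one strand or the other, the nearest to the start lying 16 bases before it in both *Gp1ba* and *Gp9*. Among the 10 genes, GATAA was found in 6 (*Gp1ba*, *Gp5*, *Gp9*, *Gp6*, *Clec1b* and *Plcg2*), against 22.6% of 32851 RefSeq promoters cut to the same length. GGAAG was found in 7 of 10, against 64.1% of promoters. The RUNX word TGTGGT was found only in *Gp9* among the 10 (14% of all promoters), and the GC-box word GGGCGG in *Gp1bb*, *Cd9* and *Plcg2* (32.7% of all). No 2 of these matches overlapped, and a match is a stretch of letters, not a bound site.

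The libraries held abundant megakaryocyte RNA beside that of other marrow cells. All 22 listed megakaryocyte and platelet genes averaged 1 FPKM or more, and their summed level was 25530 to 26330 FPKM in Ctrl and 22800 to 30760 FPKM in GA. Without *Pf4*, the most abundant of them, the sums were 12520 to 12940 FPKM (Ctrl) and 10970 to 13250 FPKM (GA). Of these 22 genes 3 were higher and 19 lower in GA by estimate (median log2 fold change -0.11), and 0 passed. Without overlap 8 were lower, beside 8.29% of all genes tested. *Kit*, which defines the sort, lay between 16.0 and 21.2 FPKM in all 6 libraries. Platelet genes this far above *Kit* are unusual for cells described as stem cells, and the share of megakaryocytes in the samples was not measured. The summed level of 14 stem and progenitor genes was 633 to 644 FPKM in Ctrl and 627 to 635 FPKM in GA, and that of 15 monocyte and neutrophil genes 1379 to 1540 FPKM in Ctrl and 1713 to 1747 FPKM in GA. The gap between these sums rests on *S100a8* and *S100a9*, singled out after their values were seen. Without them the other 13 genes summed to 721.7 to 849 FPKM (Ctrl) and 832 to 877 FPKM (GA). Of the 14 tested from the whole list, 9 were higher and 5 lower by estimate, and 0 passed. Without overlap 4 were higher, *S100a8* and *S100a9* among them, beside 11.6% of all genes. For T and NK cells, the sum of the 15 listed genes with a row was 67.5 to 71.1 FPKM (Ctrl) and 72.4 to 78.5 FPKM (GA), and 9 of the 15 were under 1 FPKM. The 13 B cell genes with a row summed to 12.8 to 13.6 FPKM (Ctrl) and 12.5 to 14.4 FPKM (GA), and of the 3 that were tested 1 was higher and 2 lower, with *Cd79a* at 0.613 ± 0.205 and 0.637 ± 0.216 FPKM (SD, n = 3). The 12 mast cell and basophil genes with a row summed to 191.7 to 201.2 FPKM (Ctrl) and 208.9 to 226.8 FPKM (GA). Of the 9 that were tested, 6 were higher and 3 lower by estimate, 0 passed and 3 were higher without overlap (11.6% of all genes). From this list *Cpa3* was at 20.5 ± 0.842 and 24.5 ± 0.692 FPKM (SD, n = 3, limma adjusted p 0.174). The 10 red cell genes summed to 1231 to 1269 FPKM (Ctrl) and 1045 to 1529 FPKM (GA). Of the 6 that were tested, 1 was higher and 5 lower by estimate, and 0 passed. The part of these other cell types in the results was not tested. In bulk RNA, fewer megakaryocytes and less of a transcript per megakaryocyte cannot be told apart.

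One library, GA replicate 1, was far from the rest. Its score on the first principal component was 14.97 against -5.82 to 0.25, and its FPKM values summed to 555449 against 508672 to 525018 in the others. Short transcripts had higher values in it, with a Spearman's rho across genes of -0.59 between transcript length and the deviation from the Ctrl mean. GA replicates 2 and 3 had a rho of -0.31 and -0.18, and the Ctrl libraries one of -0.06 to 0.07. Results are therefore given also without GA replicate 1, with the length trend of each library removed by loess, and with both changes. What part the library and the length trend have in the results was not tested beyond these values.

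The 10 genes were among the most abundant in these libraries. By mean level over the 6 libraries they ranked from 52 (*Cd9*) to 689 (*Plcg2*) of the 10912 genes tested, those whose mean reached 1 FPKM or more. *Cd9*, which encodes a tetraspanin of the platelet and progenitor surface, was first, followed by *Gp9* at rank 88. *Gp1bb* (rank 173) and *Gp5* (rank 184) came next and could not be ordered, since *Gp1bb* was the higher in 3 of 6 libraries. *Clec1b* (rank 248), *Lat* (rank 260) and *Treml1* (rank 261) formed a group whose neighbours overlapped in range. *Treml1* was above *Gp1ba* (rank 291) in 6 of 6 libraries, with a mean ratio of 1.14. *Gp6* (rank 562) and *Plcg2* were last and did not overlap with each other.

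**Figure D1:**
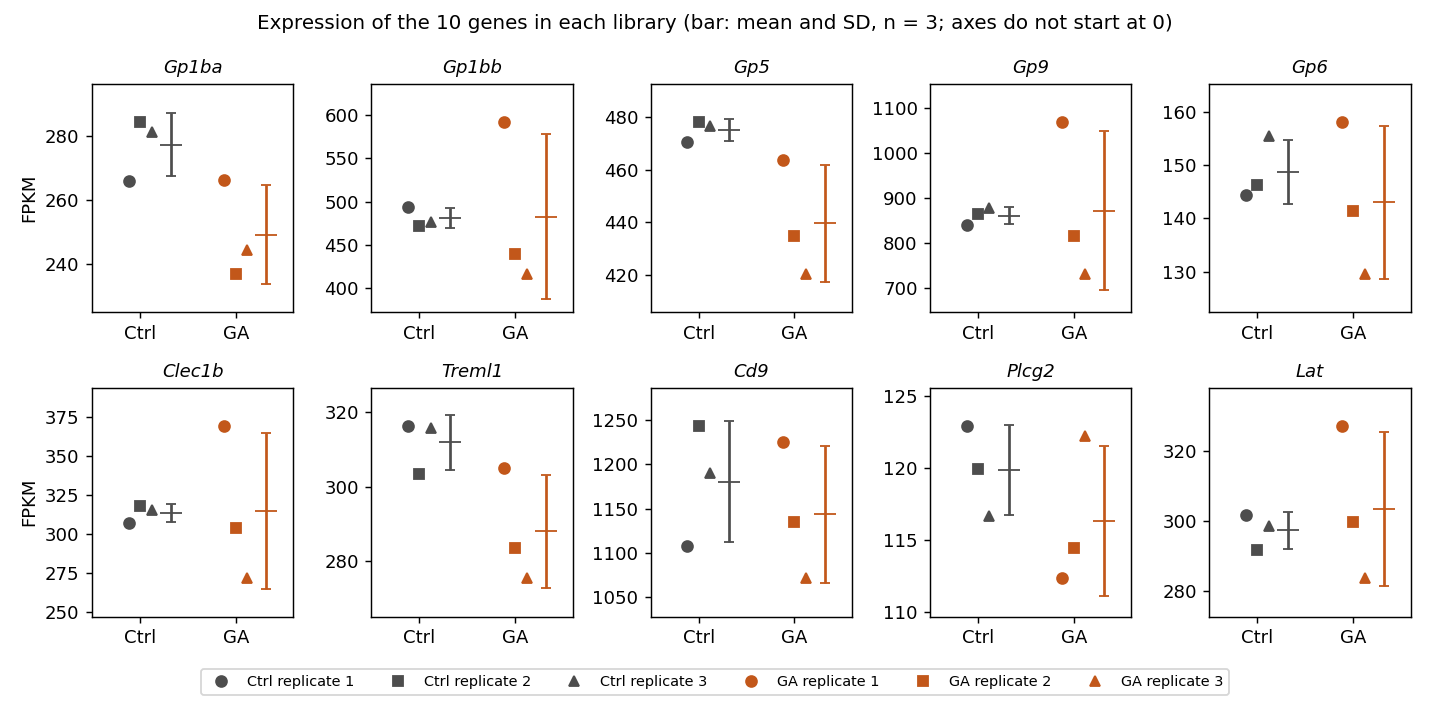
FPKM of each of the 10 genes in the 3 Ctrl and 3 GA libraries, 1 panel a gene, with the mean and SD (n = 3) as a bar and vertical axes that do not start at 0. GA replicate 1 is the highest GA library in 9 of 10 panels, all but *Plcg2*, and the GA values lie wholly below the Ctrl values only for *Gp5*.

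Across the 10 genes, GA replicates 2 and 3 lay mostly below Ctrl while GA replicate 1 did not, and with all 6 libraries no gene passed the test. The test was limma on log2(FPKM + 1), two-sided, with p adjusted by Benjamini-Hochberg over the 10912 genes and called under 0.05. It called 0 genes higher and 0 genes lower, 0% in each direction. At an unadjusted p under 0.05, 969 genes were higher (8.88%) and 505 lower (4.63%). Of the 10 genes, 0 were higher and 2, *Gp1ba* and *Treml1*, were lower at that level. Fold changes below are GA minus Ctrl on the log2(FPKM + 1) scale. The median over the 10 was -0.045, beside 0.012 over all genes tested. An exact permutation test of 3 against 3 libraries has 20 arrangements and cannot give a p under 0.1.

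*Gp1ba* (Entrez gene 14723) encodes GPIb alpha, the subunit that holds the binding site for von Willebrand factor, and lies at chr11:70639122-70642036 on the plus strand (GENCODE M21, GRCm38, as all gene positions here). Its values were 266, 284 and 281 FPKM (Ctrl) and 266, 237 and 244 FPKM (GA replicates 1 to 3). GA replicates 2 and 3 were below every Ctrl library, and GA replicate 1 was within 1 FPKM of the lowest of them. The means were 277 ± 9.82 and 249 ± 15.2 FPKM (SD, n = 3), a log2 fold change of -0.15 (SE 0.055, 95% interval -0.28 to -0.030). This was the lowest estimate among the 10 genes and did not pass (limma adjusted p 0.285, 0.034 to 0.641 over 17 alternative settings, exact permutation p 0.2). Without GA replicate 1 it was -0.20 (limma adjusted p 0.0504).

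*Gp1bb* (Entrez gene 14724) encodes GPIb beta, which is bound to GPIb alpha by disulphide bonds, and lies at chr16:18620317-18622403 on the minus strand. Its values were 494, 472 and 477 FPKM (Ctrl) and 592, 439.8 and 416 FPKM (GA). GA replicate 1 was above every Ctrl library and the other two GA libraries below every one. The means were 481 ± 11.7 and 483 ± 95.8 FPKM (SD, n = 3), so the GA spread was far wider than that of Ctrl, and the log2 fold change was -0.013 (SE 0.11, 95% interval -0.26 to 0.24, limma adjusted p 0.978). Leaving out GA replicate 1 gave -0.17 (limma adjusted p 0.069). The gene shares 1902 exon bases on the same strand with the septin gene *Septin5*, listed at 8.09 to 8.98 FPKM, and its values are uncertain to the extent that reads were divided between them.

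*Gp9* (Entrez gene 54368) encodes GPIX, the small subunit without which the complex does not reach the surface, and lies at chr6:87778072-87779768 on the plus strand. It was the most abundant transcript of the complex, at 841, 865 and 878 FPKM (Ctrl) and 1070.4, 817 and 731 FPKM (GA). Its GA libraries were split in the same way as those of *Gp1bb*. The means were 861 ± 18.7 and 873 ± 177 FPKM (SD, n = 3), with a log2 fold change of 0.00016 (SE 0.12, 95% interval -0.26 to 0.26, limma adjusted p 0.9997). Without GA replicate 1 it was -0.16 (limma adjusted p 0.120).

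*Gp5* (Entrez gene 14729) encodes GPV, the loosely held subunit that thrombin cleaves, and lies at chr16:30307685-30310779 on the minus strand. Its values were 470.3, 478 and 477 FPKM (Ctrl) and 464, 435 and 420.4 FPKM (GA). It was the only one of the 10 genes whose groups did not overlap, beside 905 of 10912 genes (8.29%) lower in GA without overlap and 1263 (11.6%) higher. The log2 fold change was -0.11 (SE 0.051, 95% interval -0.23 to 0.00093) and did not pass (limma adjusted p 0.375, 0.037 to 0.699 over 17 alternative settings, exact permutation p 0.1). Leaving out GA replicate 1 gave -0.15 (limma adjusted p 0.061).

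The summed level of the 4 subunit transcripts was 2071 to 2112 FPKM (Ctrl) and 2393, 1928 and 1811 FPKM (GA replicates 1 to 3). Ratios within a library show how the subunits stood to each other. *Gp1bb* to *Gp9* was 0.559 ± 0.0252 in Ctrl and 0.554 ± 0.0154 in GA (SD, n = 3), so the group means differed by less than the spread of either group. *Gp1ba* to *Gp9* was 0.322 ± 0.00620 in Ctrl and 0.249, 0.290 and 0.335 in GA. *Gp5* to *Gp9* was 0.552 ± 0.00815 in Ctrl and 0.433, 0.532 and 0.575 in GA. For both of these longer transcripts the lowest ratio was in GA replicate 1, and the groups overlapped. Over all genes tested, 2.13% had a ratio to *Gp9* that was higher in GA without overlap and 1.08% one that was lower, and none of the other 9 genes did.

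*Gp6* (Entrez gene 243816) encodes GPVI, the collagen receptor, and lies at chr7:4363965-4397744 on the minus strand. Its values were 144, 146 and 155 FPKM (Ctrl) and 158, 141 and 129.5 FPKM (GA), again with GA replicate 1 highest and the other two GA libraries below Ctrl. The log2 fold change was -0.060 (SE 0.069, 95% interval -0.21 to 0.095, limma adjusted p 0.776), and without GA replicate 1 it was -0.13 (limma adjusted p 0.161). *Fcer1g*, the gamma chain that GPVI needs for its place in the membrane and its signal, was at 1032, 1004 and 1039.9 FPKM (Ctrl) and 1438, 1091 and 997 FPKM (GA), a log2 fold change of 0.18 (limma adjusted p 0.545). *Gp6* stood at 0.1398, 0.1457 and 0.1495 of *Fcer1g* in Ctrl and at 0.1100, 0.1297 and 0.1299 in GA. This ratio was lower in all 3 GA libraries, as were the ratios to *Fcer1g* of 11.8% of genes tested, with 0.229% higher. *Fcer1g* has a transcript of 674 nt and *Gp6* one of 5900 nt, and monocytes and mast cells also express the gamma chain.

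*Clec1b* (Entrez gene 56760) encodes CLEC-2 and lies at chr6:129397297-129409335 on the plus strand. Its values were 307, 318 and 315 FPKM (Ctrl) and 369, 304 and 272 FPKM (GA). The log2 fold change was -0.0056 (SE 0.093, 95% interval -0.21 to 0.20, limma adjusted p 0.989), and without GA replicate 1 it was -0.13 (limma adjusted p 0.174). GA replicate 1 was above every Ctrl library and the other two were below. Its ratio to *Gp9* was 0.364 ± 0.00441 in Ctrl and 0.363 ± 0.0154 in GA (SD, n = 3), and like *Gp9* its transcript is short, at 614 nt against 881 nt. It shares 184 exon bases with *Clec9a*, which was listed at 10.5 to 13.2 FPKM. *Pdpn*, the podoplanin that CLEC-2 binds, had means of 0.670 ± 0.180 and 0.553 ± 0.140 FPKM in Ctrl and GA (SD, n = 3), under the filter.

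*Treml1* (Entrez gene 71326) encodes TLT-1, a receptor held in platelet alpha granules, and lies at chr17:48359916-48367176 on the plus strand. Its values were 316, 303 and 316 FPKM (Ctrl) and 305, 284 and 275 FPKM (GA). All but GA replicate 1 of the GA libraries lay below Ctrl. The log2 fold change was -0.12 (SE 0.051, 95% interval -0.23 to -0.0017) and did not pass (limma adjusted p 0.363, 0.026 to 0.704 over 17 alternative settings, exact permutation p 0.2). Without GA replicate 1 it was -0.16 (limma adjusted p 0.067).

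The last 3 genes are also expressed outside the megakaryocyte lineage. *Cd9* (Entrez gene 12527, chr6:125460266-125494791, minus strand) was at 1108, 1244 and 1191 FPKM (Ctrl) and 1225, 1134 and 1071 FPKM (GA), with overlapping groups and a log2 fold change of -0.047 (95% interval -0.20 to 0.11, limma adjusted p 0.837). *Plcg2*, for phospholipase C gamma 2 (Entrez gene 234779, chr8:117498291-117635142, plus strand), was at 123, 119.9 and 117 FPKM (Ctrl) and 112, 114 and 122 FPKM (GA), a log2 fold change of -0.043 (95% interval -0.15 to 0.062, limma adjusted p 0.758). It was the one gene of the 10 with its lowest GA value in replicate 1 and its highest in replicate 3. *Lat*, for the adaptor that gathers phospholipase C gamma 2 at the membrane (Entrez gene 16797, chr7:126363824-126369570, minus strand), was at 302, 292 and 299 FPKM (Ctrl) and 327, 299.65 and 284 FPKM (GA), a log2 fold change of 0.027 (95% interval -0.10 to 0.15, limma adjusted p 0.890). LAT is an adaptor of T and mast cells too. Of the 15 T and NK cell genes with a row, *Cd3d*, *Cd3g*, *Cd247*, *Lck* and *Zap70* were each at most 1.22 FPKM, and 6 averaged 1 FPKM or more, of which *Nkg7* was higher in GA without overlap (16.6 ± 1.78 and 20.6 ± 1.64 FPKM, SD, n = 3, limma adjusted p 0.230). The part of such cells in the *Lat* level was not tested.

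The GA libraries stood in a similar order in most of the 10 genes. GA replicate 1 was above every Ctrl library in 5 of 10 genes and below every one in 2, beside 27.5% and 44.9% of all genes. It was the highest GA library in 9 of 10 genes, and GA replicate 3 the lowest in 8 of 10. GA replicates 2 and 3 were both below every Ctrl library in 7 of 10 genes and both above in 0. Over all genes, 12.2% were lower without overlap once GA replicate 1 was set aside and 26.7% were higher. For 4 genes, *Gp1bb*, *Gp9*, *Gp6* and *Clec1b*, GA replicate 1 was above every Ctrl library while GA replicates 2 and 3 were below every one, a pattern found in 214 of 10912 genes (1.96%). The 10 genes summed to 4372 to 4523 FPKM in Ctrl, or 0.859% to 0.884% of the library sum. In GA replicates 1 to 3 they summed to 4890, 4205 and 3965 FPKM, or 0.880%, 0.801% and 0.769%.

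The split of the GA libraries went with transcript length in part of the genes. In GA replicate 1 the log2 deviation from the Ctrl mean was 0.31 for *Gp9*, 0.30 for *Gp1bb* and 0.24 for *Clec1b*, and -0.057 for *Gp1ba* and -0.092 for *Plcg2*. Over the 10 genes Spearman's rho of length with this deviation was -0.58, -0.22 and 0.41 in GA replicates 1, 2 and 3, as a description of 10 points from 1 library each. With the length trend of all genes removed, *Clec1b* was at -0.019 in GA replicate 1 and *Gp9* at 0.13, while *Gp1bb* remained at 0.25 and *Gp6*, the longest, moved to 0.22. The median deviation of the 10 genes then was -0.0055, -0.16 and -0.22 in GA replicates 1 to 3, against 0.072, -0.074 and -0.18 as deposited. The medians of GA replicates 2 and 3 stayed below 0 with and without this change.

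**Figure D2:**
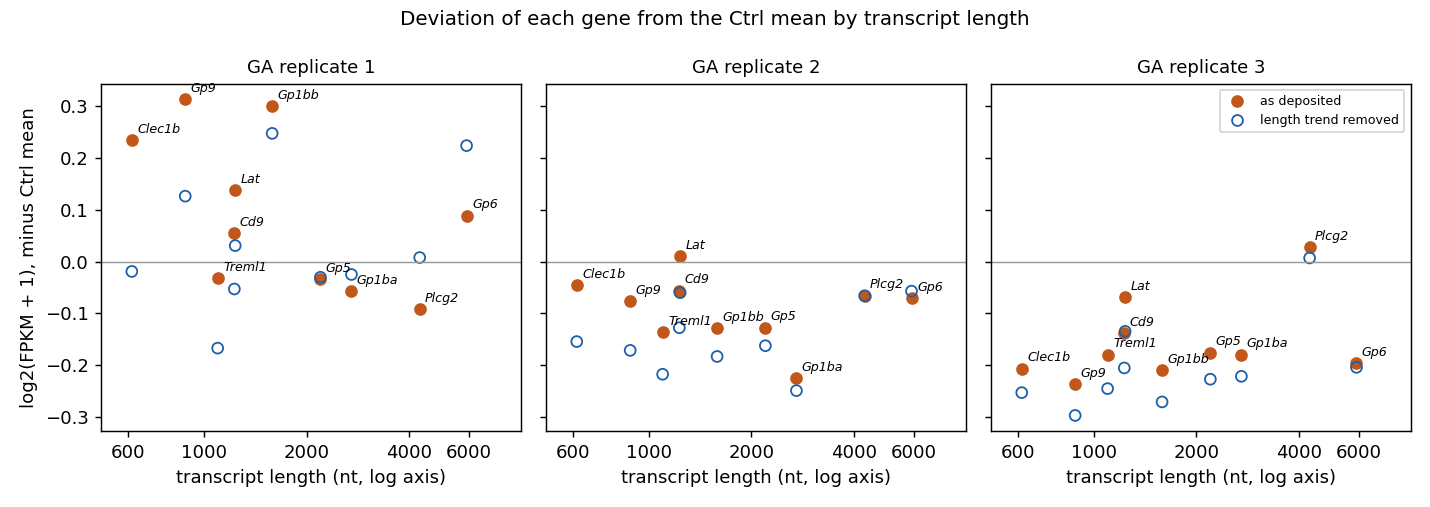
Log2 deviation of each of the 10 genes from its Ctrl mean, on the log2(FPKM + 1) scale, against transcript length in nt (log axis), 1 panel for each GA library. Filled points are values as deposited and open points have the length trend removed. In GA replicate 1 *Gp9* and *Gp1bb* are near 0.31 and 0.30, whereas in GA replicate 3 all genes but *Plcg2* are below 0.

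How many of the 10 genes pass depends on how GA replicate 1 and the length trend are handled. With GA replicate 1 left out, 54 genes passed as higher (0.495%) and 60 as lower (0.55%) over all genes, and 0 of the 10 passed. With the length trend removed and all libraries kept, limma called 0 in either direction over all genes (0%) and 0 of the 10. With both changes, 14 genes were called higher (0.128%) and 96 lower (0.88%), and 6 of the 10 were lower, given here with the log2 fold change and the limma adjusted p: *Treml1* (-0.23, 0.026), *Gp1ba* (-0.24, 0.034), *Gp1bb* (-0.23, 0.034), *Gp5* (-0.19, 0.037), *Gp9* (-0.23, 0.040) and *Clec1b* (-0.20, 0.046). In that fit *Gp6* (-0.13, 0.251), *Cd9* (-0.17, 0.153), *Lat* (-0.097, 0.224) and *Plcg2* (-0.029, 0.751) did not pass, on the same quantities by limma. That fit rests on 2 GA libraries, GA replicates 2 and 3.

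**Figure D3:**
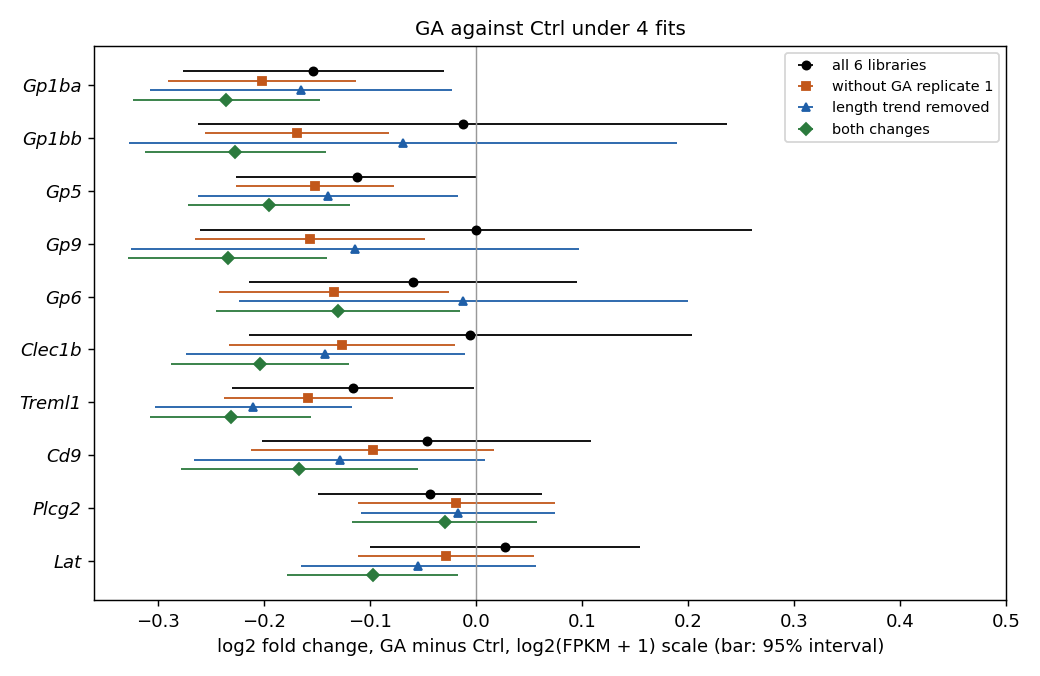
Log2 fold change, GA minus Ctrl on the log2(FPKM + 1) scale, of each of the 10 genes under 4 fits, with 95% intervals from limma as bars. With all 6 libraries the intervals of 8 genes reach past 0, and with both changes the estimates of the 4 complex genes lie between -0.24 and -0.19.

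Scale moved the direction of the smallest estimates. As deposited, 8 of the 10 genes were lower by estimate and 2, *Gp9* and *Lat*, were higher. With each library rescaled to a sum of 1000000, all 10 were lower, with a median of -0.10, while the median of all genes moved from 0.012 to -0.043. Median-of-ratios and TMM-type scaling gave 9 lower and 1 higher, *Lat*. None of the 10 passed under any of these scalings.

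Relative to *Itga2b*, the integrin alpha IIb of the same lineage, most of the 10 genes did not separate the groups. *Itga2b* was itself below Ctrl in all 3 GA libraries, at 1064, 1075 and 1056 FPKM (Ctrl) and 966, 917 and 954 FPKM (GA), a log2 fold change of -0.17 (limma adjusted p 0.245, 0.028 to 0.584 over 17 alternative settings). *Gp1ba* to *Itga2b* was 0.260 ± 0.00886 in Ctrl and 0.263 ± 0.0106 in GA (SD, n = 3). *Gp9* to *Itga2b* was 0.790, 0.805 and 0.831 in Ctrl and 1.11, 0.891 and 0.766 in GA. The ratios of *Plcg2* (0.1125 ± 0.00270 and 0.123 ± 0.00609) and *Lat* (0.279 ± 0.00693 and 0.321 ± 0.0214) were higher in GA without overlap, as were 49% of all genes tested. None of the 10 had a lower ratio without overlap (0.293% of all genes).

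**Figure D4:**
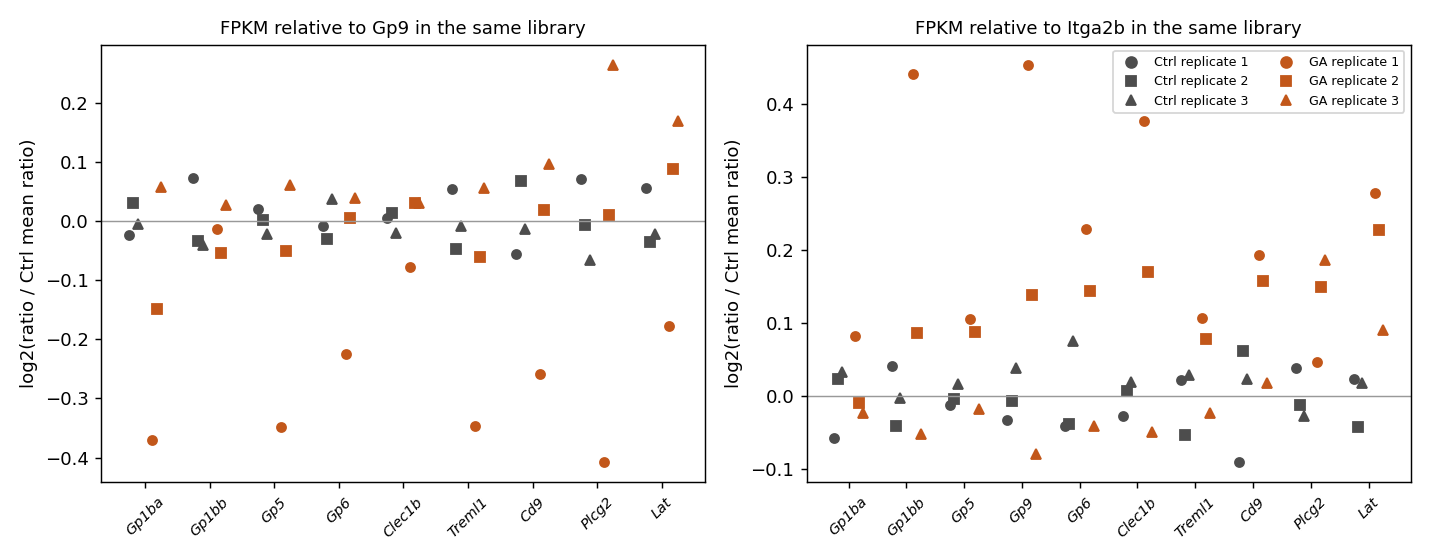
Log2 of the FPKM ratio to *Gp9* (left) and to *Itga2b* (right) within each library, relative to the mean ratio in Ctrl, with 1 point for each of the 6 libraries. *Gp1bb* and *Clec1b* keep closest to *Gp9*, and *Plcg2* and *Lat* lie above all Ctrl ratios to *Itga2b* in the 3 GA libraries.

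Upstream of the receptors, 8 of 12 listed ligands and sheddases were tested, and 2 were higher and 6 lower by estimate (median -0.11). None passed with all 6 libraries, and 4 were lower without overlap, beside 8.29% of all genes tested. *Thbs1*, for thrombospondin-1, an alpha granule protein that binds GPIb alpha, had means of 914 ± 23.8 and 717 ± 3.06 FPKM (SD, n = 3) in Ctrl and GA, a log2 fold change of -0.35 that did not pass (limma adjusted p 0.135, 0.0097 to 0.492 over 17 alternative settings). *Vwf*, the main ligand of the complex, was at 224, 234 and 230.4 FPKM (Ctrl) and 181, 186 and 215 FPKM (GA), a log2 fold change of -0.25 (limma adjusted p 0.221). Both have long transcripts, of 5848 and 8834 nt, and unlike *Gp9* or *Clec1b* neither was above Ctrl in GA replicate 1.

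Downstream of GPVI and CLEC-2, 21 genes of the ITAM adaptor and kinases were all tested, with 5 higher and 16 lower (median -0.068), 0 called and 7 lower without overlap (8.29% of all genes). *Syk* was at 116, 115 and 113 FPKM (Ctrl) and 99.1, 108 and 110.4 FPKM (GA), a log2 fold change of -0.11 (limma adjusted p 0.359). *Lcp2*, for SLP-76, was at 129.9, 132 and 132 FPKM (Ctrl) and 137, 127 and 124 FPKM (GA), a log2 fold change of -0.022 (limma adjusted p 0.894). *Src* (39.5 ± 1.19 and 35.1 ± 1.85 FPKM) and *Pik3r1* (14.0 ± 0.185 and 12.5 ± 0.413 FPKM), a kinase and a regulatory subunit of phosphoinositide 3-kinase, had the smallest p of this list and did not pass.

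Of 18 effectors and integrins, 17 were tested and 15 were lower by estimate (median -0.10), 10 of them without overlap (8.29% of all genes), and 0 were called. *Itgb3*, the beta 3 partner of alpha IIb, had means of 727 ± 4.68 and 632 ± 14.6 FPKM (Ctrl and GA, SD, n = 3, log2 fold change -0.20, limma adjusted p 0.189, 0.028 to 0.579 over 17 alternative settings). *Itga2*, of the collagen-binding integrin alpha 2 beta 1, was at 37.2 ± 1.69 and 32.3 ± 1.05 FPKM (-0.20, limma adjusted p 0.217). The 8 proteins that bind the tail of GPIb inside the cell gave 2 higher and 6 lower (median -0.063), with *Sh2b3* at 63.1 and 57.3 FPKM and the 14-3-3 zeta gene *Ywhaz* at 236 and 219 FPKM.

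Genes listed as inhibitors of these pathways were divided, with 8 of 19 higher and 11 lower (median -0.020). The listing is a label, and a lower value in it, that of CD148 included, need not mean less inhibition. *Ptprj*, the phosphatase CD148, had means of 46.5 ± 1.59 and 39.9 ± 1.82 FPKM (Ctrl and GA, SD, n = 3, log2 fold change -0.22, limma adjusted p 0.189), and *Ptpn11*, for SHP-2, had means of 111 ± 2.98 and 100.5 ± 1.82 FPKM (-0.15). Of 14 tetraspanins related to CD9, 12 were tested, with 6 in each direction (median -0.0053), and *Tspan4* was at 63.0 ± 0.648 and 69.7 ± 1.59 FPKM (0.14, limma adjusted p 0.238) and *Tspan9* at 55.1 and 49.8 FPKM (-0.15). Of 16 megakaryocyte transcription factors, 13 were lower (median -0.055), among them *Zfpm1*, for the GATA-1 partner FOG-1, at 287 ± 11.9 and 262 ± 3.54 FPKM (-0.13, limma adjusted p 0.278), and *Tal1* at 91.2 ± 0.718 and 84.6 ± 0.344 FPKM (-0.11). Rescaling to 1000000 raised the lower counts of the ligand, ITAM, effector, GPIb tail, inhibitor, tetraspanin and transcription factor lists to 8 of 8, 18 of 21, 17 of 17, 8 of 8, 16 of 19, 8 of 12 and 16 of 16.

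Without GA replicate 1, limma called 6 genes of these pathway lists, which were named after their values were seen, beside 0.495% of all genes called higher and 0.55% called lower. *Thbs1* (log2 fold change -0.35, adjusted p 0.014), *Itgb3* (-0.22, 0.028), *Itga2b* (-0.19, 0.046), *Mpig6b*, for the inhibitory receptor G6b-B (-0.21, 0.046), and *Grap2*, for the adaptor GADS (-0.25, 0.0465), were lower. *Ptpn6*, for the phosphatase SHP-1, was higher (0.21, limma adjusted p 0.046). With both changes 7 were lower, *Nfe2* (-0.21, 0.034) and *Sla* (-0.21, 0.030) joining the 5 above, and *Ptpn6* did not pass (0.17, limma adjusted p 0.079). Over all genes 0.128% were called higher and 0.88% lower in that fit. Rescaled to 1000000 with all libraries, *Thbs1* was called (-0.41, limma adjusted p 0.030), 1 of 3 genes lower (0.0275%).

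The mean pattern of the 4 complex genes over the 6 libraries, in centred log2(FPKM + 1), was 0.018, 0.042 and 0.045 in Ctrl and 0.17, -0.10 and -0.17 in GA. Among 6264 other genes that averaged 10 FPKM or more, the 5 with the smallest root mean square difference from it were *Nfe2* (0.017), a transcription factor of platelet formation, *Clu* (0.019), for clusterin, *F2r* (0.022), for the thrombin receptor PAR1, *Slc39a4* (0.023), for a zinc transporter, and *Mettl27* (0.027). *Nfe2* was at 528, 524 and 537 FPKM (Ctrl) and 571, 487 and 463 FPKM (GA), a log2 fold change of -0.068 (limma adjusted p 0.753). Within the 10 genes the closest pairs by the same measure were *Gp5* with *Treml1* (0.025) and *Gp9* with *Clec1b* (0.038), and the farthest was *Gp9* with *Plcg2* (0.20). Inside the complex, *Gp1ba* was 0.042 from *Gp5* and *Gp1bb* 0.044 from *Gp9*, while *Gp1ba* was 0.15 and *Gp5* 0.13 from *Gp9*. The mean pattern is therefore an average over genes that differ, not the course of each. The measure is over 6 libraries, of which GA replicates 1 and 3 lie farthest from the mean, on opposite sides (0.17 and -0.17).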

How the data were processed

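Total RNA was extracted with TRIzol and sequenced on a BGISEQ-500 instrument. The deposited values are FPKM, which the authors calculated with RSEM. The submitters' processing notes name HISAT2 2.0.4, Bowtie2 2.2.5 and mm10. The annotation, the strand setting and the GA concentration of this experiment are not given in the sources used here. The table also holds the authors' group means, which were not used, and every column with the values of a sample was matched to it (0 unmatched).

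Samples were grouped by title into 3 Ctrl and 3 GA libraries. Of 1322 to 1421 low values in each library, 40.3% to 43.2% were within 0.15 of an integer number of fragments, so whole reads were not recovered, no count test was run and the depth is unknown in absolute terms. The same low values would place relative depth at 0.963 to 1.039 of the median library, which is uncertain because whole reads were not recovered. limma 3.58.1 (R 4.3.3, with a mean-variance trend) was run on log2(FPKM + 1) of the 10912 genes that averaged 1 FPKM or more and was tested on simulated data. This scale understates changes of low genes. TMM-type scaling used an unweighted trimmed mean of log ratios. Transcript lengths from GENCODE M21 (GRCm38) were found for 98.2% of tested genes, and the length trend was fitted by loess with a span of 0.5. FPKM divides by length, and the cause of the length trend was not tested.

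The 10 genes and the lists were chosen with earlier results of these data known, and the promoter words after the promoters had been read. The genes named besides are *Fcer1g*, *Syk*, *Lcp2*, *Itga2b*, *Pf4* and *Vwf*, the 2 genes of smallest limma p in each pathway list, the 5 genes closest to the complex pattern, and *Kit*, *Cd3e*, *Cd79a* and *Cpa3* as markers. Other genes (overlapping neighbours, *Pdpn*, T cell genes, *S100a8*, *S100a9* and pathway genes called in an alternative) were named after their values were seen. *Cd3e* and *Trac* had no row in the table used here. *Pf4* was at 13012, 13389.5 and 13592 FPKM (Ctrl) and 17513, 13453 and 11829 FPKM (GA). Alternatives were other pseudocounts, filters and scalings, no trend, removal of the length trend, a replicate block and each replicate left out.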

Additional observations from a re-analysis of the deposited data

How the results depend on the processing

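Of 170 alternative estimates for the 10 genes, 147 kept their direction and side of the threshold, 6 passed it and 18 turned direction, with 1 (*Gp9* with both changes) in both counts. The turns were in estimates near 0. *Gp9* went to -0.059 rescaled to 1000000, -0.0055 with median-of-ratios, -0.0069 with TMM-type scaling, -0.11 with the length trend removed and -0.23 with both changes, and *Lat* to -0.032 rescaled, -0.055 with the length trend removed and -0.097 with both. Leaving out 1 library each gave -0.16 to 0.12 for *Gp9*, -0.028 to 0.074 for *Lat*, -0.17 to 0.086 for *Gp1bb*, -0.13 to 0.0090 for *Gp6* and -0.13 to 0.095 for *Clec1b*, where the low ends are without GA replicate 1. Over all genes limma called 3 lower rescaled, 14 higher and 96 lower with both changes, and 0 to 54 higher and 0 to 60 lower when 1 library was left out. Of the 10 genes 6 were called with both changes and 0 otherwise. Of the pathway genes 1 was called lower rescaled, 7 lower with both changes, and 0 to 1 higher and 0 to 5 lower when 1 library was left out. The cause was not tested. Same-numbered libraries did not deviate together (r -0.17, -0.13 and 0.0039), beside r of -0.13 to 0.19 for libraries of different number. Deviations were taken from means of 3 libraries, so this cannot tell whether same-numbered libraries shared a preparation. The fit with a replicate block called 0 genes. The table holds no counts, and 3 libraries a group set the width of the intervals.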
